A study of Homo sapiens with 6 samples.

Results

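The genes described here encode the subunits of the GARP and EARP tethering complexes and the SNARE proteins that act with them at the trans-Golgi network, 10 of the 19934 gene symbols in each count table. They were taken by name as VPS51, VPS52, VPS53, VPS54, VPS50, STX16, STX6, STX10, VTI1A and VAMP4, and the group was chosen by measured values, since it was picked because VPS51 and STX16 both had lower counts on ZBTB11 knockdown. All 10 genes were listed in every table and passed the filter on low counts in each comparison. RNA-seq had been performed in 6 libraries of NCI-H1299 (H1299), an established human lung cancer cell line labelled as adenocarcinoma. The cells had received repeated transfections over 4 days with a control siRNA (si-Ctr, genotype WT), with siRNA that targets ZBTB11 (si-ZBTB11, genotype ZBTB11 knockdown) or with siRNA that targets SET (si-SET, genotype SET knockdown). There were 2 biological replicates in each group, and all 3 groups carry an siRNA and the transfection reagent. ZBTB11 is a zinc finger protein studied as a transcription factor, and SET is an oncoprotein that was studied as its partner. A transient siRNA lowers its target in part, and the labels do not say which of the 2 ZBTB11 oligos each library received.

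GARP (Golgi-associated retrograde protein) is a tether on the trans-Golgi network that captures vesicles returning from endosomes. VPS51, VPS52 and VPS53 form its shared core, to which VPS54 is added in GARP and VPS50 in EARP, a sister complex that acts on recycling endosomes. After capture, the SNAREs STX16, STX6, VTI1A and VAMP4 drive fusion, with STX10 a close relative of STX6 that acts in some of these routes. Through this step, sorting receptors such as the mannose 6-phosphate receptors return to the Golgi to be used again.

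The sequences of the knockdown siRNAs are shown because they define the knockdown groups. Capitals mark the 7 bases that pair with guide positions 2 to 8, taking each sequence as the strand that matches the messenger RNA.
si-ZBTB11 #1: ggagctgtttcCAGTCATg
si-ZBTB11 #2: gtgacatctctTGTACACt
si-SET: gugacagaauuUGAAGAUa
None of these 19-base sequences occurs in a GENCODE version 44 transcript of the 10 genes. The 3′ UTRs of VPS51 and STX16, which are 278 and 3238 bases long in the canonical transcript, held 0 copies of the capital letters of either ZBTB11 oligo. Those of VPS53 and VAMP4 held 1 copy each of the letters of the first oligo, which 12.6% of the 3′ UTRs of tested genes hold. For the si-SET letters, VPS53 and STX6 held 1 copy and VAMP4 held 3, and 17.3% of the 3′ UTRs of tested genes hold them. The letters at the same positions of the si-Ctr sequence, which is not shown, were held by 0 members. They are held by 3.0% of the 3′ UTRs of tested genes.

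The promoters of VPS51 and STX16 are shown because these 2 genes define the group. The study also reported recruitment of ZBTB11 to the STX16 promoter by chromatin immunoprecipitation. Each window runs from 250 bases before to 50 bases after the start site in RefSeq (GRCh38.p14), on the plus strand. Capitals mark the letters CCGGAAG or CAGGAAG, searched on both strands, which spell the consensus that the study gives for ZBTB11. CCGGAAG is also the core of sites for ETS-family factors. Positions are counted from the start site as 0 to the first base of the match.
VPS51, chr11:65095964-65096263: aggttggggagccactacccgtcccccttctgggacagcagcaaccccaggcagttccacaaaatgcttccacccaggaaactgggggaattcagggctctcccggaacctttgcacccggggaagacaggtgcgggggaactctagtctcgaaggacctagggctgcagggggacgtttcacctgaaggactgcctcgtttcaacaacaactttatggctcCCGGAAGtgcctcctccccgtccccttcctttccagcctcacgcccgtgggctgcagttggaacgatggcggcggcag
STX16, chr20:58651033-58651332: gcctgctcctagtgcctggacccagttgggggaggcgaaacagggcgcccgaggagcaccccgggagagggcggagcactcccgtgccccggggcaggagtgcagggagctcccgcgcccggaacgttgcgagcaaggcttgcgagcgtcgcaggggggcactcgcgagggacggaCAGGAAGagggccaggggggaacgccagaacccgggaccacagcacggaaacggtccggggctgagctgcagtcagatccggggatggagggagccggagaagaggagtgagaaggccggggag
VPS51 has 1 match, CCGGAAG at −28, and STX16 has 1 match, CAGGAAG at −74. Windows were given for 9 of the 10 genes, with 2 windows for VPS52. Matches also lay in both windows of VPS52, in that of STX10 at −15 and in that of VTI1A at −232 and 7, and there was no match in the windows of VPS54, VPS50, STX6 and VAMP4. Among all windows of this length, 21.8% hold at least 1 match, and among the windows of genes tested on ZBTB11 knockdown, 26.4%. The share was 30.7% for tested genes that passed as higher on that knockdown, 25.0% for those that passed as lower and 26.0% for the others. Binding data were not analysed here. A match is a description of the letters, not evidence of a bound site.
The primer pair that the study used on the STX16 promoter spans chr20:58651308-58651449 (hg38), 142 bases that run from 25 to 166 past the start site. It holds 1 match, CAGGAAG on the opposite strand at 64, and does not reach the match at −74.
STX16 forward primer: gaagaggagtgagaaggccg
STX16 reverse primer: gggacttgtctgaacctgct

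Each library held between 16653115 and 17694522 counts, so that the floor of 3 counts lies between 0.170 and 0.180 CPM, the count after division by library size, and this floor reflects counting error alone. Both siRNA targets were lower in the groups labelled with them. ZBTB11 had 925 and 1075 counts with si-Ctr, 548 and 544 with si-ZBTB11 and 846 and 708 with si-SET, log2 fold changes of −0.86 and −0.39 (edgeR adjusted p = 4.45e-17 and 2.12e-05). The decrease of ZBTB11 with si-SET was −0.24 without si-Ctr replicate 2 and then did not pass (adjusted p = 0.0501). SET had 11656 and 11007 counts with si-Ctr, 11441 and 11244 with si-ZBTB11 and 1032 and 1031 with si-SET, a log2 fold change of −3.48 (SE 0.05). Among epithelial markers, KRT8 and KRT18 had 351 CPM or more in all 6 libraries, whereas EPCAM did not exceed 12 counts. Of the lung epithelial markers, NKX2-1 had 37 to 61 counts and NAPSA 3 to 10, SFTPB did not exceed 7 and SFTPC 1. CD3E and LUM, which mark T cells and fibroblasts, were at 0 in every library, and the other leukocyte, endothelial and fibroblast markers examined, PTPRC, CD14, VWF, CDH5 and DCN, did not exceed 12 counts.

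Within the tethering core, VPS51, the subunit that binds STX6 and that GARP and EARP share, was the gene with the lowest level after ZBTB11 knockdown relative to control. Its normalised level was 102 and 106 CPM with si-Ctr, 35.7 and 34.4 CPM with si-ZBTB11 and 104 and 107 CPM with si-SET. Both si-ZBTB11 libraries thus lay far below the other 4, which overlapped. The group means were 104 ± 2.75, 35.1 ± 0.932 and 106 ± 1.80 CPM (SD, n = 2 each). The si-ZBTB11 level was 33.7% of the control, which on the log2 scale is −1.57 with a standard error (SE) of 0.06. This is one of the values on which the group was selected, and it is given as a description. In bulk RNA, fewer cells expressing a gene and less RNA per cell cannot be told apart. Set directly against si-SET, the log2 fold change was −1.59 (SE 0.06), again a description because it rests on the same si-ZBTB11 libraries.

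STX16, the syntaxin that marks the trans-Golgi acceptor membrane for these vesicles, was the other gene that chose the group. It had 118 and 120 CPM with si-Ctr, 52.5 and 55.1 CPM with si-ZBTB11 and 113 and 116 CPM with si-SET. Here too both si-ZBTB11 libraries were below every other library, at 45.2% of the control mean. The log2 fold change was −1.14 (SE 0.06) against si-Ctr and −1.09 (SE 0.06) against si-SET. The criteria of the study are a p-value under 0.05 without adjustment and a log2 fold change beyond 1 in either direction. They are applied here to the edgeR fit, whereas the study used DESeq2. On ZBTB11 knockdown against si-Ctr, VPS51 and STX16 were the members that passed, and 1.03% of all genes tested passed as lower. The group was chosen on the fall of VPS51 and STX16 in this comparison, so nothing is read from that.

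**Figure D1:**
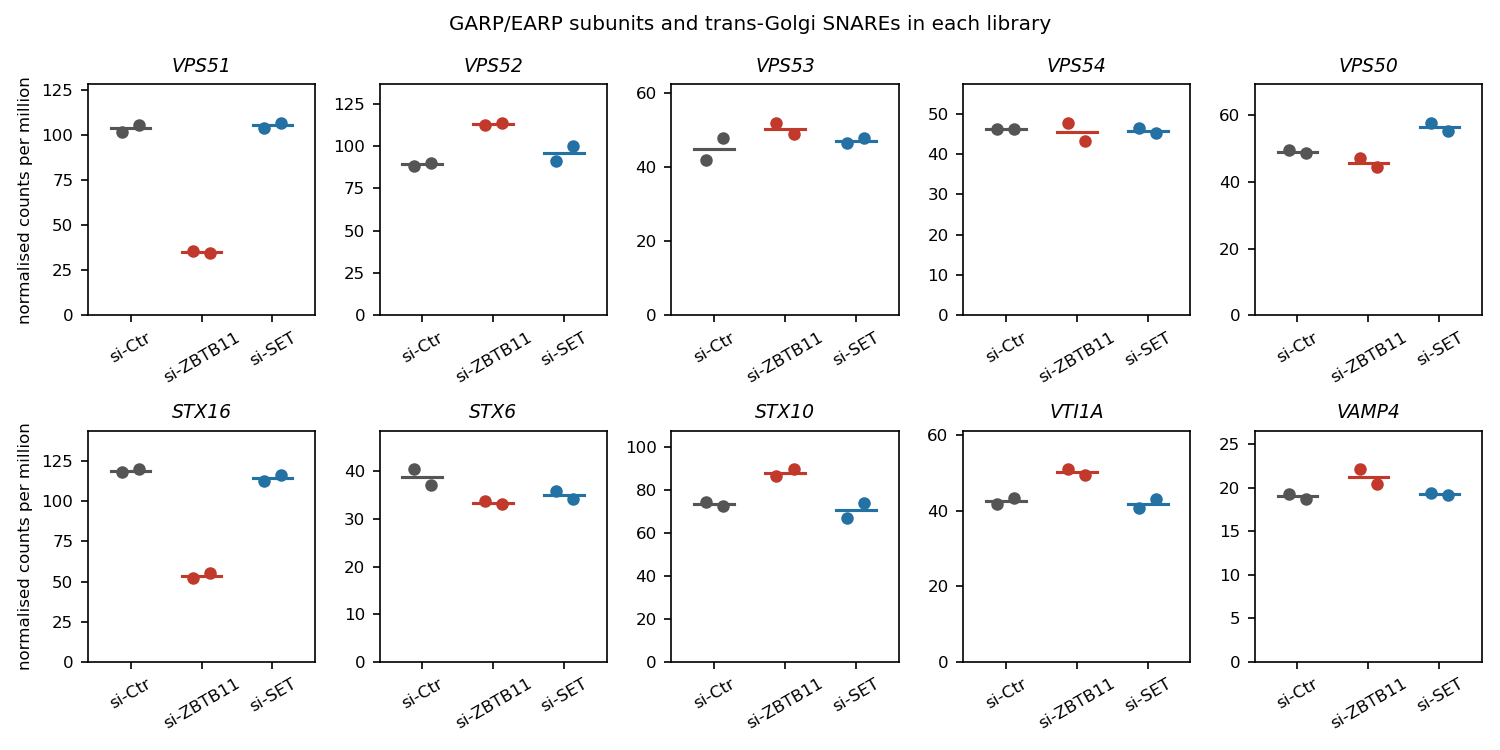
Normalised CPM (y axis, from 0) of the 10 genes in each library, by siRNA group (x axis), with points for the 2 replicates and a line for their mean. The si-ZBTB11 points of VPS51 (35.7 and 34.4 CPM) and STX16 (52.5 and 55.1 CPM) sit below all other libraries, while the other 8 genes move by much smaller amounts.

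The remaining subunits, placed here on hg38 as in GENCODE, did not share the low level of VPS51 on ZBTB11 knockdown. VPS52 (chr6:33250272-33272047) had 88.4 and 90.1 CPM with si-Ctr, 112 and 114 CPM with si-ZBTB11 and 91.2 and 100 CPM with si-SET. Its si-ZBTB11 libraries were the highest of the 6, at 127% of the control mean, a log2 fold change of 0.34 (SE 0.05). VPS53 (chr17:508503-721717) had 42.0 and 47.9 CPM with si-Ctr and 51.9 and 48.9 CPM with si-ZBTB11, against 46.4 and 47.7 CPM with si-SET, and on ZBTB11 knockdown a log2 fold change of 0.17 (SE 0.07). VPS54 (chr2:63892146-64019428), the subunit that defines GARP, had 46.1 and 46.3 CPM with si-Ctr, 47.7 and 43.2 CPM with si-ZBTB11 and 46.3 and 45.1 CPM with si-SET, and its groups overlapped in every comparison. VPS50 (chr7:93232340-93361123), the subunit that defines EARP, had 49.4 and 48.6 CPM with si-Ctr and 47.1 and 44.4 CPM with si-ZBTB11, a log2 fold change of −0.10 (SE 0.07).

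Among the SNAREs, STX10 and VTI1A stood higher in the si-ZBTB11 libraries than in control, and STX6 stood lower. STX10 (chr19:13144058-13150383) had 74.4 and 72.8 CPM with si-Ctr, 86.5 and 89.7 CPM with si-ZBTB11 and 67.1 and 74.2 CPM with si-SET. VTI1A (chr10:112446998-112818744), a Qb-SNARE of the trans-Golgi complex, had 41.8 and 43.4 CPM with si-Ctr, 51.0 and 49.6 CPM with si-ZBTB11 and 40.6 and 43.2 CPM with si-SET. For both genes the si-ZBTB11 libraries lay above the other 4, with log2 fold changes against control of 0.26 (SE 0.06) and 0.24 (SE 0.07). STX6 (chr1:180972712-181023121), the Qc-SNARE that pairs with STX16, had 40.4 and 37.1 CPM with si-Ctr, 33.7 and 33.1 CPM with si-ZBTB11 and 35.9 and 34.1 CPM with si-SET. Its log2 fold change was −0.21 (SE 0.08) on ZBTB11 knockdown, and the si-Ctr libraries were the highest of the 6. Unlike STX10 and VTI1A, STX6 did not pass the test given below. VAMP4 (chr1:171700160-171742074), the R-SNARE carried by the vesicle, had the fewest reads of the members, with 19.3 and 18.7 CPM with si-Ctr, 22.1 and 20.4 CPM with si-ZBTB11 and 19.4 and 19.1 CPM with si-SET.

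By the quasi-likelihood test of edgeR, with p-values adjusted after Benjamini and Hochberg over all genes tested, 5 of the 10 members had an adjusted p-value under 0.05 on ZBTB11 knockdown, VPS52, STX10 and VTI1A higher and VPS51 and STX16 lower. Of all 13534 genes, 20.5% passed, 9.94% higher and 10.5% lower. The rule that chose the group used this comparison, so nothing is read from that count, and no p-value is given for its members. The median log2 fold change of the 10 members was 0.07, against 0.00161 over all genes tested. Without si-Ctr replicate 1 or without si-ZBTB11 replicate 1, 4 members passed in place of 5, VTI1A being lost, and so it was with DESeq2, the tool of the study. Without si-Ctr replicate 2 there were 6, with VPS53 added. With scaling by library size only, or with at least 10 counts in every library, there were also 6, with STX6 added.

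SET knockdown used other knockdown libraries and the same si-Ctr libraries, and it left VPS51 and STX16 near their control levels. VPS51 had a log2 fold change of 0.02 (SE 0.05, edgeR adjusted p = 0.812), with a 95% interval of −0.08 to 0.13. STX16 had one of −0.05 (SE 0.05, edgeR adjusted p = 0.464), with an interval from −0.15 to 0.05, although both si-SET libraries were just below both si-Ctr libraries. These intervals are not set against the si-ZBTB11 fold changes, because both genes were chosen on those. The si-Ctr libraries are shared with that choice.

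VPS50 was the only one of the 10 members to pass the test on SET knockdown. It had 57.6 and 55.2 CPM in the si-SET libraries, above the 4 others, and a log2 fold change of 0.20 (SE 0.07, edgeR adjusted p = 0.0224), or 115% of the control level. The call was lost in 4 of 12 alternative fits, among which the criteria of the study are not counted. It was lost with DESeq2 (adjusted p = 0.173), without si-Ctr replicate 1 (log2 fold change 0.21), without si-Ctr replicate 2 (0.19) and without si-SET replicate 1 (0.17). One member of 10 is below the 27.0% of all 13599 genes that passed on SET knockdown, 13.1% higher and 13.9% lower. The other 9 members had adjusted p-values between 0.191 and 0.936, and their log2 fold changes lay between −0.14 for STX6 and 0.10 for VPS52.

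**Figure D2:**
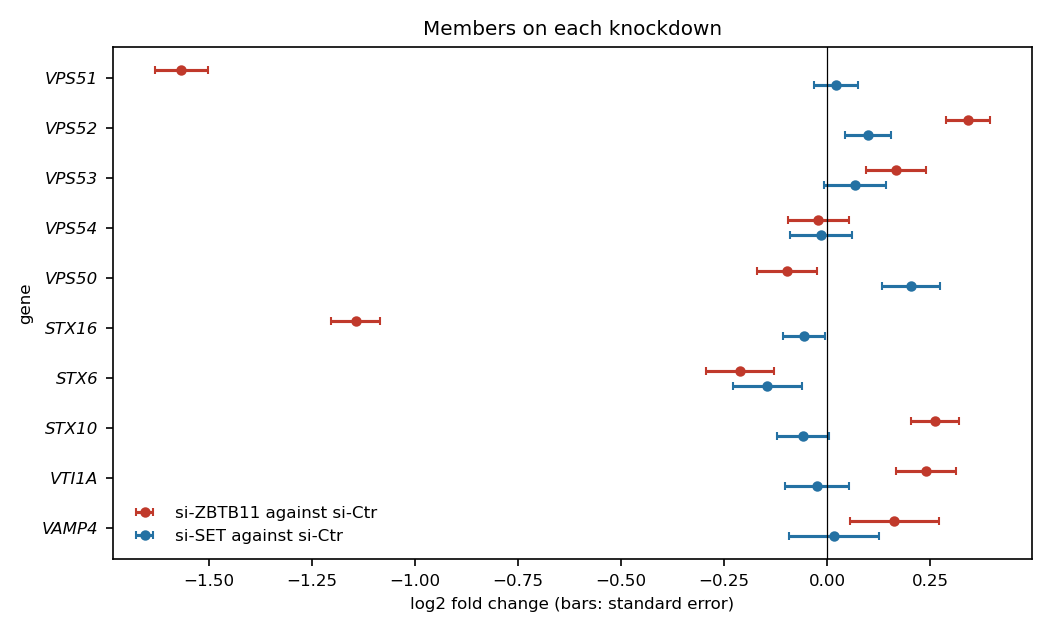
Log2 fold change (x axis) of each of the 10 genes (y axis) on ZBTB11 knockdown (red) and SET knockdown (blue) against the same si-Ctr libraries, with bars for the standard error from the edgeR fit. VPS51 (−1.57) and STX16 (−1.14) lie apart on ZBTB11 knockdown, and all values on SET knockdown lie between −0.14 and 0.20.

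The knockdowns were then compared with each other without the shared controls, for the 8 members other than VPS51 and STX16. VPS52, STX10 and VTI1A were higher and VPS50 was lower in the si-ZBTB11 libraries than in the si-SET libraries, so 4 of 8 passed. Of all 13549 genes 18.2% passed, 9.61% higher and 8.58% lower. The si-ZBTB11 libraries are the ones that the rule used, and VPS52, STX10 and VTI1A were already higher in them than in control. The comparison is thus not independent of that choice, and nothing is read from the count. The difference was 0.32 on the log2 scale for STX10 (SE 0.06, edgeR adjusted p = 0.000279), which passed under all 12 alternative fits. For VPS50 it was −0.30 (SE 0.07, edgeR adjusted p = 0.00216), also under all 12. For VPS52 it was 0.24 (SE 0.06, edgeR adjusted p = 0.00214), and this was lost without si-SET replicate 1, where it was 0.18. For VTI1A it was 0.26 (SE 0.07, edgeR adjusted p = 0.00958), which was lost with DESeq2 (0.27), without si-SET replicate 1 (0.22) and without si-ZBTB11 replicate 1 (0.25). Without si-SET replicate 1, 2 of the 8 passed in place of 4. VPS53, VPS54, STX6 and VAMP4 had differences between −0.07 and 0.15 with adjusted p-values of 0.377 or more.

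Levels can be compared between genes only per length, and CPM was therefore divided by the length of the canonical GENCODE transcript in kilobases. In the si-Ctr libraries the levels per kilobase were 39.1 for VPS51, 30.4 for VPS52, 9.77 for VPS54, 8.62 for VPS50 and 3.43 for VPS53. By this length VPS51 was the most abundant subunit in control cells. All annotated exons together span 4880 bases for VPS51 and 4493 for VPS52, against 2661 and 2936 in the canonical transcripts. The gap between these subunits thus depends on the length used. The canonical transcript of VPS53 is 13089 bases long, most of it 3′ UTR, and its level per kilobase depends on how much of that length is transcribed here, which the gene counts do not show. In the si-ZBTB11 libraries VPS51 was at 13.2 per kilobase and VPS52 at 38.5, so their order was turned around. By the canonical lengths, VPS51 stayed above VPS54 at 9.62 and VPS50 at 8.05. The order of VPS51 and VPS54 there depends on the length used. All annotated exons of VPS54 span 5447 bases, against 4725 in its canonical transcript. By the canonical lengths, the order of the subunits in the si-SET libraries was as in control except that VPS50, at 9.93, was level with VPS54, at 9.67. Among the SNAREs in control cells, STX10 had 56.4 per kilobase, STX16 24.1, VTI1A 10.2, STX6 8.05 and VAMP4 3.82. With si-ZBTB11, STX16 was at 10.9 per kilobase and lay below VTI1A by the canonical lengths. The order of STX16 and VTI1A there also depends on the length used, and it is not read as a result of the knockdown. All annotated exons of VTI1A span 8408 bases, against 4174 in its canonical transcript. Those of STX16 span 5077 bases, against 4937.

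The genes whose profiles over the 6 libraries lay nearest to those of VPS51 and STX16 were sought among 13722 genes, by the Euclidean distance between log2 CPM profiles centred on their means. Nearest to VPS51 were DPY19L4 (distance 0.17), TTC26 (0.28), MAN2C1 (0.36), AGK (0.39) and TACO1 (0.39). DPY19L4, a C-mannosyltransferase homologue, had 1334 and 1359 counts with si-Ctr, 476 and 486 with si-ZBTB11 and 1380 and 1305 with si-SET. Nearest to STX16 were CYP3A5 (0.13), B4GALT7 (0.17), DUS1L (0.18), TACO1 (0.20) and AGK (0.22). CYP3A5 had 18 to 44 counts in each library, so its profile is imprecise, and it has close paralogs. B4GALT7, a Golgi galactosyltransferase, had 609 and 606 counts with si-Ctr, 269 and 289 with si-ZBTB11 and 680 and 600 with si-SET. AGK, a mitochondrial acylglycerol kinase, and TACO1, a mitochondrial translation activator, were near both genes. STX16 ranked 15 by distance from VPS51 and VPS51 ranked 74 by distance from STX16, with a distance of 0.54 between them.

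**Figure D3:**
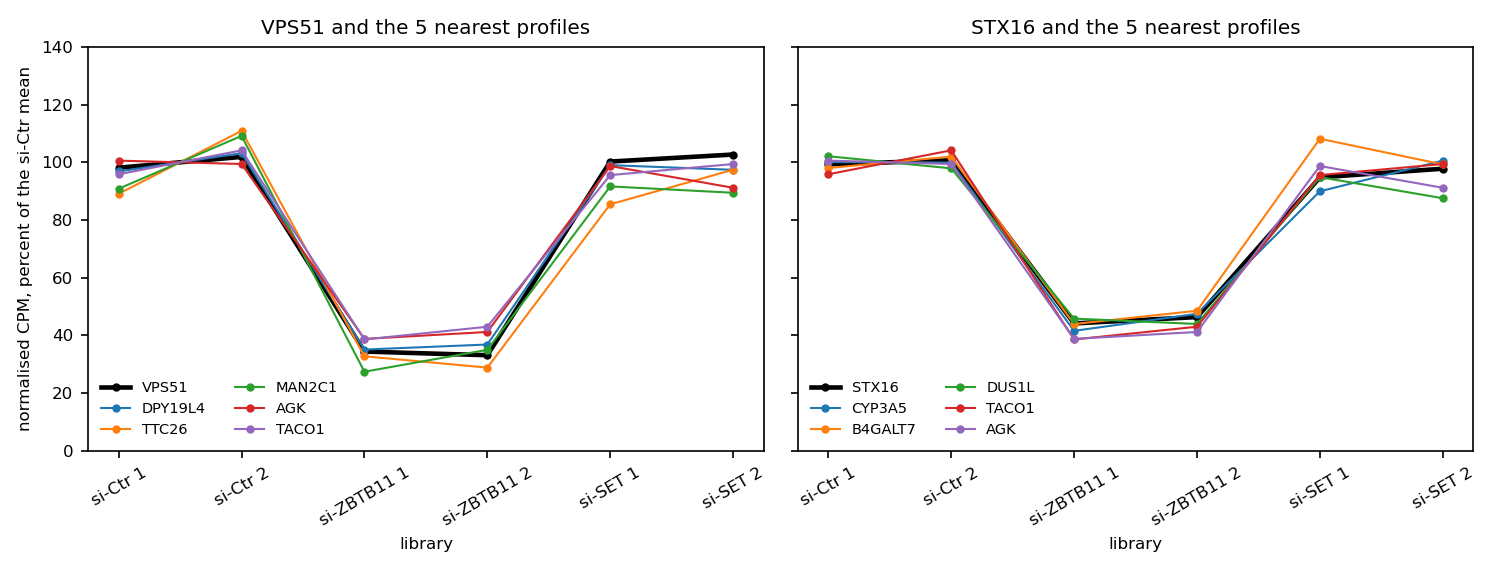
Normalised CPM in each library (x axis) as a percentage of the si-Ctr mean (y axis) for VPS51 (left, black) and STX16 (right, black) and the 5 genes with the nearest profiles (colours), with lines that only join the values of a gene. In the si-ZBTB11 libraries VPS51 is at 33.7% and STX16 at 45.2% of the control on average, and the lines return to near the control level in the si-SET libraries. The coloured genes were chosen on these same libraries, so their likeness follows from that choice.

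Genes beside VPS51 and STX16 were examined because neighbours can share promoters or reads. VPS51 (hg38, chr11:65089324-65111862) is on the plus strand, where the first bases belong to an upstream transcript and the RefSeq promoter lies further in. Its last 18 exonic bases overlap TM7SF2, a sterol reductase gene on the same strand. TM7SF2 had 850 and 984 counts with si-Ctr, 735 and 762 with si-ZBTB11 and 875 and 908 with si-SET. It was lower on ZBTB11 knockdown by a log2 fold change of −0.28 (SE 0.07, edgeR adjusted p = 0.00226), far less than VPS51. The call was lost with DESeq2, without si-Ctr replicate 2 (−0.14) and without si-ZBTB11 replicate 1 (−0.24). ZFPL1, on the other side, and ZNHIT2 had log2 fold changes of 0.12 (SE 0.16) and 0.06 (SE 0.16) on ZBTB11 knockdown, with edgeR adjusted p-values of 0.646 and 0.849. TMEM262, which shares 52 bases with VPS51 exons on the opposite strand, had at most 8 counts.

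STX16 (chr20:58651272-58679526) is also on the plus strand, and the read-through gene STX16-NPEPL1 overlaps it and the next gene, NPEPL1. In GENCODE, 28.5% of the exonic bases of STX16 are also exonic in the read-through gene, and reads there could be assigned to either gene or to none. STX16-NPEPL1 itself had 1 to 9 counts in each library. NPEPL1, an aminopeptidase-like gene that starts 9605 bases after STX16 ends, had 153 and 145 counts with si-Ctr, 187 and 202 with si-ZBTB11 and 140 and 137 with si-SET. Its log2 fold change on ZBTB11 knockdown was 0.40 (SE 0.15, edgeR adjusted p = 0.0486), of the opposite sign to that of STX16, and it passed in only 3 of 12 alternative fits. It did not pass with any one of the si-Ctr or si-ZBTB11 libraries left out, where the log2 fold change was 0.32 to 0.47. On SET knockdown TM7SF2, ZFPL1, ZNHIT2 and NPEPL1 had edgeR adjusted p-values of 0.460 or more. APCDD1L, the nearest listed gene on the other side of STX16, had 2 to 9 counts in each library and was not tested. Of the other members, VTI1A shares 3.83% of its exonic bases with ZDHHC6 on the opposite strand.

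**Figure D4:**
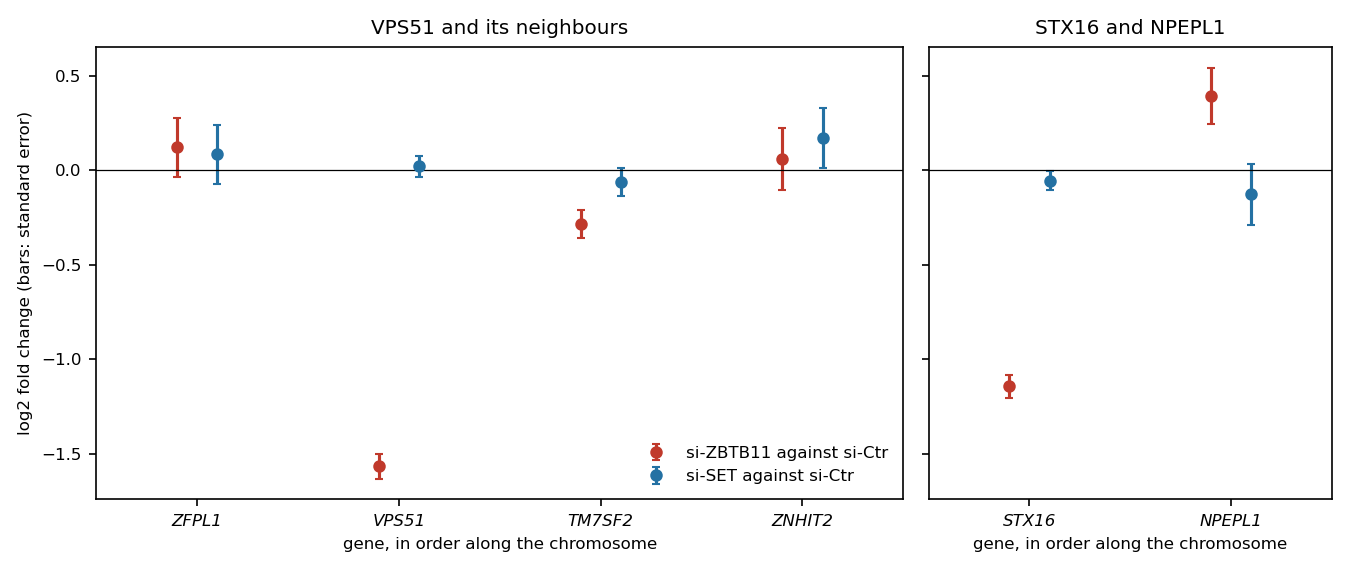
Log2 fold change (y axis) with its standard error of VPS51, STX16 and the tested genes beside them, in their order along the chromosome (x axis), on ZBTB11 knockdown (red) and SET knockdown (blue) against si-Ctr. Only VPS51 (−1.57) and STX16 (−1.14) lie below −1, and TM7SF2 (−0.28) and NPEPL1 (0.40) lie on opposite sides of 0 on ZBTB11 knockdown.

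Other genes of membrane trafficking, 73 in 8 lists, were also described, and all of them were tested. On ZBTB11 knockdown 13 of them passed, 7 higher and 6 lower, with a median log2 fold change of 0.04, and none had an absolute log2 fold change over 1. This is 17.8% of the genes, near the 20.5% of all genes. On SET knockdown 27 passed, 11 higher and 16 lower, or 37.0%, with a median of −0.04, and again none moved by more than 1. In this comparison 27.0% of all genes passed. With DESeq2 the counts were 7 and 13. Without si-Ctr replicate 1, without si-Ctr replicate 2 or without si-SET replicate 2, the 27 on SET knockdown became 17 each time.

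By list, 1 of 10 genes that recruit tethers or regulate SNAREs passed on ZBTB11 knockdown and 5 on SET knockdown, 1 and 2 of 5 golgins, and 1 and 1 of 10 genes of retromer and sorting nexins. Of 8 cargo genes 3 and 4 passed, and of 15 other SNAREs 2 and 4. Among tethers, the counts were 1 and 2 of 8 COG subunits, 3 and 4 of 9 exocyst subunits and 1 and 5 of 8 genes of HOPS and CORVET. Of 33 gene and knockdown pairs taken for their size of change, 15 passed under all 12 alternative fits, and none passed the criteria of the study.

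Among those 15, TGOLN2, which encodes the recycling trans-Golgi protein TGN46, was lower on SET knockdown. It had 3499 and 3059 counts with si-Ctr, 3656 and 3669 with si-ZBTB11 and 2548 and 2309 with si-SET. Its log2 fold change with si-SET was −0.45 (SE 0.05, edgeR adjusted p = 5.95e-14). On ZBTB11 knockdown it was 0.17 (SE 0.04, edgeR adjusted p = 0.00242), which was lost without si-Ctr replicate 2 (0.11). Its direct difference between the knockdowns was 0.62 (SE 0.05, edgeR adjusted p = 1.39e-11). FURIN, a convertase that recycles through this compartment, was lower on both knockdowns, at −0.19 on ZBTB11 knockdown and −0.27 on SET knockdown (SE 0.05 each), and the first was lost without si-Ctr replicate 2 (−0.16). The tether subunit COG5 was lower on both, at −0.32 and −0.20 (SE 0.07 each), of which the second was lost with DESeq2, without si-Ctr replicate 1 (−0.17) or 2 (−0.23) and without si-SET replicate 2 (−0.13). The SNARE SEC22B was also lower on both, at −0.23 and −0.13 (SE 0.05 each, edgeR adjusted p = 0.000522 and 0.0489). For the second, the calls under the alternative fits were not examined individually. Higher on both knockdowns were the endosomal syntaxin STX12, at 0.57 and 0.42 (SE 0.11 each), the exocyst subunit EXOC2, at 0.32 and 0.26 (SE 0.06 each), and the HOPS subunit VPS41, at 0.23 and 0.25 (SE 0.06 and 0.05). On SET knockdown COG4 (0.25, SE 0.06), EXOC5 (0.32, SE 0.06) and STX8 (0.60, SE 0.13) were also higher, and VPS39 (−0.26, SE 0.05) was lower.

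**Figure D5:**
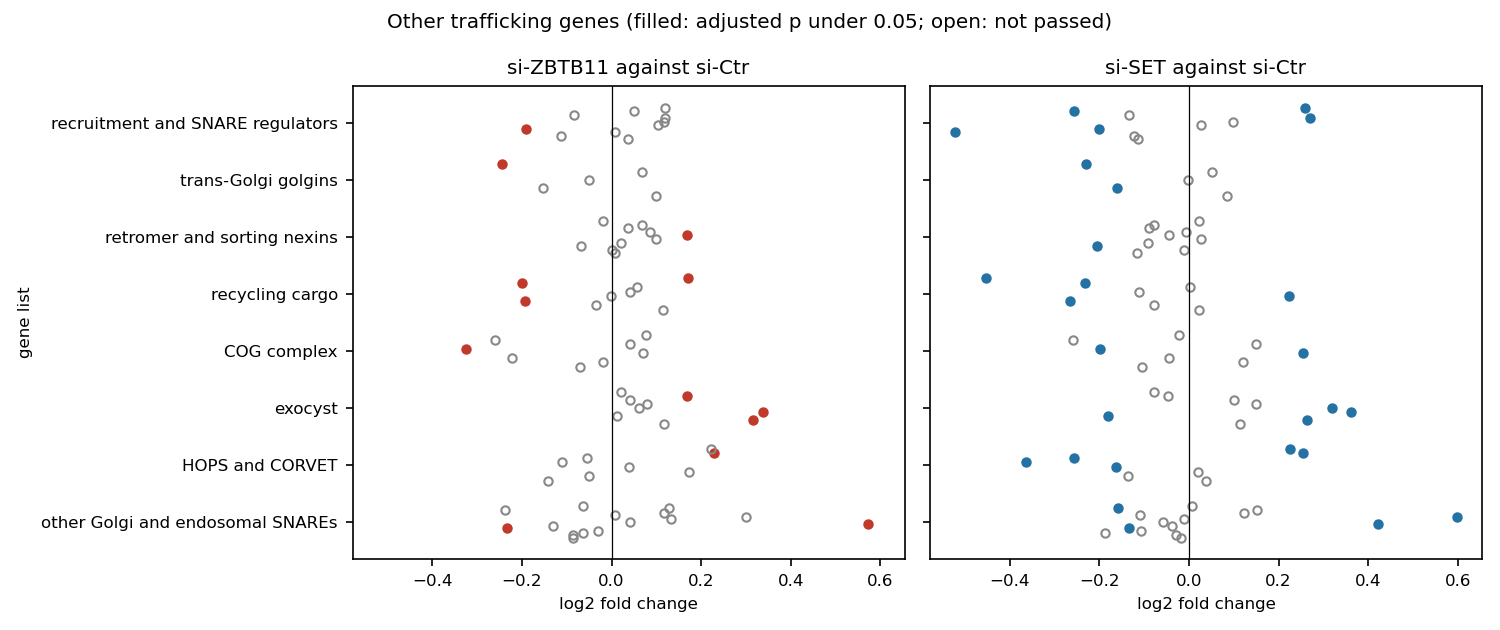
Log2 fold change (x axis) of the 73 other trafficking genes by list (y axis) on ZBTB11 knockdown (left) and SET knockdown (right), with filled points for an adjusted p-value under 0.05. On ZBTB11 knockdown 13 points are filled, and STX12 at 0.57 lies farthest from 0.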

How the data were processed

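RNA-seq counts of 6 libraries of H1299 cells were used, with 2 replicates a group. Per the labels and the methods of the study, paired-end reads were aligned to hg38 with HISAT2 2.0.5 and counted per gene with featureCounts 1.5.0-p3, and the authors deposited whole-number counts without normalization. The annotation, strand setting and handling of multiply mapped reads are not given in the sources used here, so overlapping genes are uncertain. The members and lists were chosen with earlier results of these data known.

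Groups were compared in pairs, using edgeR 4.0.16 (R 4.3.3) over all genes passing filterByExpr, with TMM normalization, the legacy quasi-likelihood test, two-sided, and Benjamini-Hochberg adjustment over all genes tested. A gene passed at an adjusted p-value under 0.05. Standard errors are the log2 fold change over the root of F. The study used DESeq2, which was run here as version 1.42.0 among the alternatives. The tests were checked on simulated data whose changes were larger than most of those reported here. That check does not cover small changes. CPM used TMM over all 6 libraries. With 2 libraries a group, no permutation test could reach 0.05.

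Named genes are the members, the siRNA targets, the 5 nearest profiles to VPS51 and STX16 (log2 CPM with a prior count of 2), their neighbours, and up to 3 genes per list and knockdown with the largest absolute log2 fold change among those that passed, of which those passing in all 12 alternative fits (not counting the criteria of the study) are given, except 1 that is not reported here. Gene positions and transcripts came from GENCODE version 44, where 18802 of 19934 symbols were found by name, and promoters from RefSeq. Replicates differed by more than sampling noise, with a chi-square per degree of freedom of 2.34 to 2.71.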

Additional observations from a re-analysis of the deposited data

How the results depend on the processing

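Every pair of groups was refitted under the alternatives fixed for this work, which were DESeq2, DESeq2 size factors, library size only, 2 other filters, all 6 libraries in one fit, edgeR's newer quasi-likelihood method, the replicate block, the criteria of the study and each library left out in turn. VPS51 and STX16 kept log2 fold changes of −1.59 to −1.54 and −1.18 to −1.11 on ZBTB11 knockdown. On SET knockdown, the count of members was 1 and became 0 with DESeq2 (1 if p-values are left unadjusted) and 0 to 1 with a library left out. In the direct comparison, 4 of 8 became 2 to 4 with a library left out, and on ZBTB11 knockdown 5 of 10 became 4 to 6. Of the other trafficking genes, 13 on ZBTB11 knockdown became 7 with DESeq2 and 9 to 13 with a library left out, and 27 on SET knockdown became 13 with DESeq2 and 17 to 21. At the criteria of the study the counts were 0 members on SET knockdown (edgeR, 1 without the limit on fold change), 0 of 8 in the direct comparison (4 without it), 2 on ZBTB11 knockdown, and 0 of the other genes on ZBTB11 knockdown (22 without it) and on SET knockdown (37 without it), which follows from the limit on the fold change. The cause of the other changes was not tested. No named result that passed changed its direction. With a library left out, the lone library of that group is assumed to vary like the others.

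Replicate numbers are shared by the groups. Same-numbered libraries deviated together at correlations of only 0.01 to 0.03 across genes, so they share a number and were not taken as pairs. With the replicate number as a block, the counts were 1, 4, 6, 17 and 34 for the members on SET knockdown, in the direct comparison and on ZBTB11 knockdown (where STX6 was added) and for the other genes on ZBTB11 and SET knockdown. With 2 libraries a group, small differences such as those of STX6 and VPS53 could not be told from no difference.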
